A study of Homo sapiens with 36 samples.

Results

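The RNAs described here are 10 long noncoding RNAs that are well expressed in many tissues: MALAT1, NEAT1, TUG1, DANCR and the snoRNA host genes GAS5, SNHG1, SNHG5, SNHG8, SNHG12 and EPB41L4A-AS1. They were chosen by name, as 10 rows of a table of 26468 genes, and all 10 were among the 15542 genes tested. Each has an RPKM value, reads scaled by counted gene length and by library size, in 36 libraries. The libraries come from established human colon cancer lines: HCT116 and HCT-15, SW480, HT-29, and COLO205 and COLO320, 6 in all. Every line has 3 libraries of cells given 0.5 µM JQ1 for 24 h and 3 of cells given DMSO alone. JQ1 competes with acetylated lysine for BET bromodomain proteins, which read chromatin and promote transcription. Cells were growing logarithmically when collected, and no gene was altered by the study. Separate cultures are not stated for the 3 libraries of a group, so p-values here measure a spread that may be technical.

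MALAT1 and NEAT1 are nuclear RNAs encoded close to each other. MALAT1 gathers in nuclear speckles, bodies rich in splicing factors, and NEAT1 is the scaffold of paraspeckles, bodies that hold RNA-binding proteins such as NONO and SFPQ. The mature end of MALAT1, and of the long form of NEAT1, carries no ordinary poly(A) tail, and the labels do not say how RNA was selected before sequencing. A snoRNA host gene carries small nucleolar RNAs in its introns. The snoRNAs are released after splicing and guide ribose methylation or pseudouridylation of ribosomal RNA, while the spliced host RNA is often short-lived and, for several hosts such as GAS5, is degraded by nonsense-mediated decay when it is translated. Many host genes start transcription in a run of C and T, as ribosomal protein genes do.

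The 5 windows of annotated start sites are shown as examples of the motifs searched, for RNAs whose response is described below. Each runs from 250 bases before to 50 bases after a start, 5′ to 3′ on the gene's strand, as given by RefSeq for GRCh38.p14. Capitals mark exact matches to the letters given after the windows for the TATA box, the E-box and the CCAAT box. They also mark any run of at least 4 pyrimidines from the start base. Other spellings were not searched and stay in lower case, such as tatataa in the SNHG12 and SNHG5 windows. The windows are MALAT1 at chr11:65498795-65499094 (plus strand, the downstream of its 2 windows), TUG1 at chr22:30969015-30969314 (plus), DANCR at chr4:52712144-52712443 (plus), SNHG12 at chr1:28581824-28582123 (minus) and SNHG5 at chr6:85678684-85678983 (minus).
MALAT1: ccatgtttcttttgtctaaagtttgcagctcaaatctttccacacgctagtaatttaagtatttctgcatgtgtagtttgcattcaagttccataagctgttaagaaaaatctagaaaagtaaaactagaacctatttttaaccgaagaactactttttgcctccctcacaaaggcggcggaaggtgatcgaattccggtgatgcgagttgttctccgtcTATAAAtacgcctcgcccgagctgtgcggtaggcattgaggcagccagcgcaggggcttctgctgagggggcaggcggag
TUG1: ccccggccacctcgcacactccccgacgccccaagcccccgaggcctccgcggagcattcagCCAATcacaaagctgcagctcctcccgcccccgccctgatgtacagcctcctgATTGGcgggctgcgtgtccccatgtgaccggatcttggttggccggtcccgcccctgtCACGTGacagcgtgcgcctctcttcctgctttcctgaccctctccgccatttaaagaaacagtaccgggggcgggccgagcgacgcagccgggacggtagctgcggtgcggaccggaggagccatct
DANCR: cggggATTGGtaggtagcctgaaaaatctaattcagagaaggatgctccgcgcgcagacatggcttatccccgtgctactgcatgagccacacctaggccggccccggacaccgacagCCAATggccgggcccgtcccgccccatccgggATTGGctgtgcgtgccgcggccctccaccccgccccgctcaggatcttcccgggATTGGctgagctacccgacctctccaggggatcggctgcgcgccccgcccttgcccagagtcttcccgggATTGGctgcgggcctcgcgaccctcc
SNHG12: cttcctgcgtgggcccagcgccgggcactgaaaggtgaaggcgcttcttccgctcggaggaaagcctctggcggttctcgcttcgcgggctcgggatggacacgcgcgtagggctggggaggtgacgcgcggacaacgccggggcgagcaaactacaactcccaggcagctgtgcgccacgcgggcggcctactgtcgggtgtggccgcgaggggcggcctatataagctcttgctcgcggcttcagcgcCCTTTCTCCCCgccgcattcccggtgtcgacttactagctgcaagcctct
SNHG5: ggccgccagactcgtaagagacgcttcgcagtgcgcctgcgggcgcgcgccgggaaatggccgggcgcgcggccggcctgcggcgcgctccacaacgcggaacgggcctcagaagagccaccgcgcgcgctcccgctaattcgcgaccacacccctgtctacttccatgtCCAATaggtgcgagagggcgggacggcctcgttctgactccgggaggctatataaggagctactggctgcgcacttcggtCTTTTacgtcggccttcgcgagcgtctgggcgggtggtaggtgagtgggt
TUG1 was the only one of the 9 RNAs with a window to hold CACGTG, the E-box that MYC and MAX bind, which reads the same on both strands; 7.26% of 35116 windows hold it. The MALAT1 window held TATAAA on the gene's strand, as did 7.33% of all windows, and 11.5% hold it on either strand. DANCR held 5 copies of CCAAT, counted on both strands (ATTGG on the other), the core of the NF-Y site, a count reached by 0.359% of windows. That motif was added after the sequences had been seen. The run of C and T at the start is 11 bases long for SNHG12, a length reached by 0.76% of windows. It is 5 bases for SNHG5, where 7.19% have 4 or more. For the other hosts it is 3 bases (SNHG1), 1 (SNHG8 and EPB41L4A-AS1) or 0 (GAS5 and DANCR). Of the windows not shown, GAS5 held 3 copies of the CCAAT box, and SNHG1 held the TATA box letters on the opposite strand. At least 1 copy of the CCAAT box is held by 34.6% of windows and at least 4 by 0.991%. The share with at least 3 was not counted. NEAT1 had no window. These matches are letters in a window and were not measured as binding sites.

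Levels in DMSO spanned a wide range among the 10. Averaged over the 18 DMSO libraries, SNHG5 had 128 RPKM, DANCR 93.7, SNHG1 83.1, GAS5 67.9, SNHG8 43.7, NEAT1 35.8, TUG1 27.2, SNHG12 18.9, EPB41L4A-AS1 10.3 and MALAT1 9.45 RPKM. Among the 15542 tested genes this placed SNHG5 at rank 483 and MALAT1 at rank 7232, near the middle. MALAT1 is often one of the most abundant long noncoding RNAs, and its mature end carries no ordinary poly(A) tail. How RNA was selected is not stated, so its rank in these libraries need not be its rank in the cells. Whether selection lowered its level was not tested. Recovered reads per library ranged from 88 to 689 for EPB41L4A-AS1 and from 1719 to 42830 for NEAT1, with MALAT1 at 1122 to 12195.

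SNHG5 (Entrez 387066), host of the SNORD50 snoRNAs, had the widest range between lines in DMSO. SW480 had 297.7 ± 7.24 RPKM (SD, n = 3), COLO320 232.5 ± 5.66, COLO205 150.5 ± 3.17, HCT116 46.5 ± 0.989, HCT-15 22.3 ± 1.29 and HT-29 18.6 ± 1.605 RPKM. The highest mean was 16.0 times the lowest, and each line differed from the next in this order by limma's test with Benjamini-Hochberg adjustment (the largest adjusted p was 4.33e-05, for HCT-15 above HT-29). Most genes passed these comparisons too. Of 15542 tested genes, from 12073 (HCT116 and HCT-15) to 13539 (SW480 and COLO320) were called. For the other 9 RNAs the highest line was 1.65 times (SNHG8) to 3.91 times (NEAT1) the lowest. All 10 differed between lines in DMSO by limma's F test, as did 98.8% of tested genes.

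The order of the lines was not shared. HCT116 had the highest DMSO level of GAS5 (85.8 RPKM), SNHG1 (137), SNHG8 (55.6) and SNHG12 (34.4), SW480 that of SNHG5, NEAT1 (81.7) and MALAT1 (15.2), and COLO320 that of DANCR (134), TUG1 (34.6) and EPB41L4A-AS1 (13.6). HCT116 had the lowest level of TUG1, 14.6 RPKM against 26.5 in COLO205, the next in order (adjusted p = 2.58e-20). Between these lines 13312 of 15542 tested genes were called in DMSO. Some neighbours in the order were not separated. COLO205, HCT-15 and COLO320 had NEAT1 levels of 20.9, 20.9 and 20.9 RPKM with adjusted p of 0.944 and 0.976 between neighbours. MALAT1 in SW480 exceeded HT-29 (adjusted p = 0.0118), and none of the 4 steps below that passed the test. Between SW480 and HT-29, 13278 of the tested genes were called in DMSO.

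**Figure D1:**
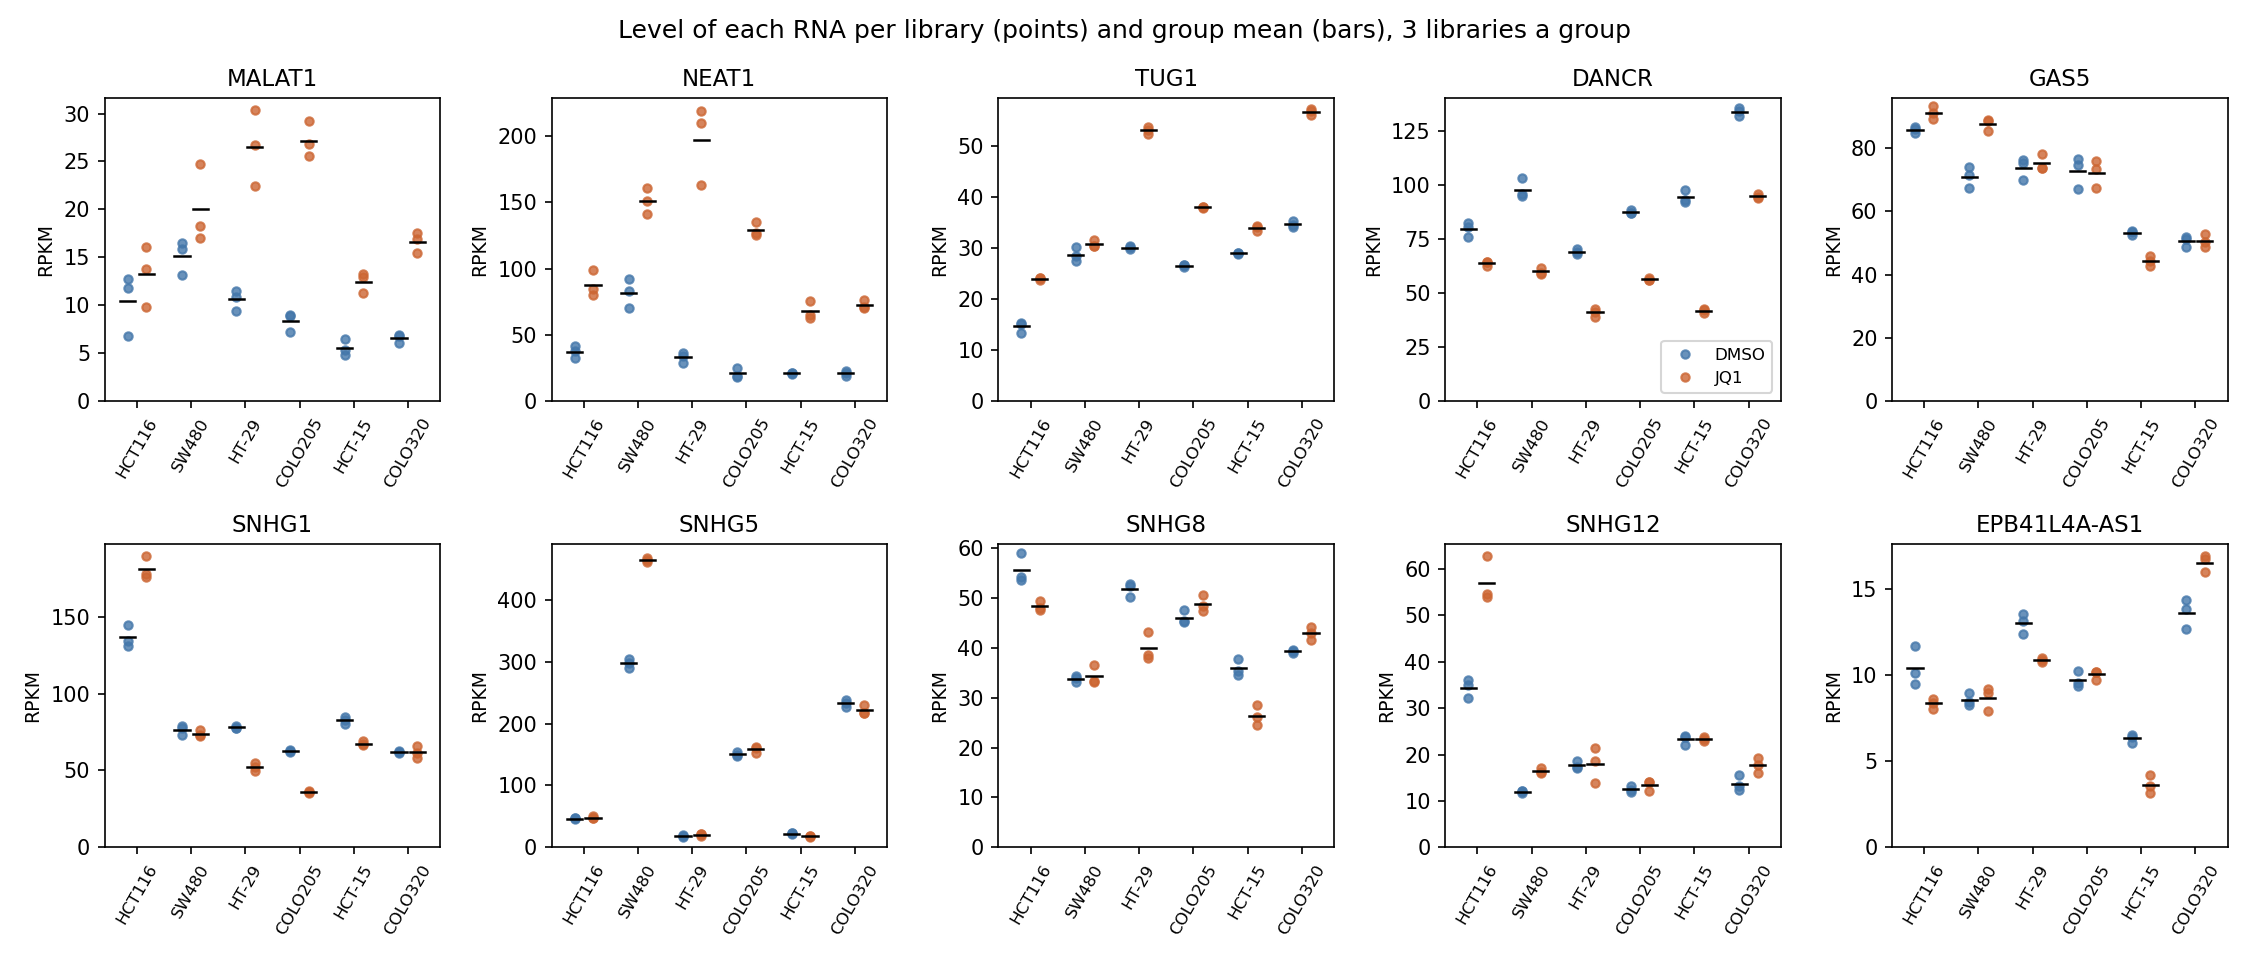
RPKM (y axis, linear, from 0) of the 10 RNAs in the 36 libraries, by cell line (x axis); points are single libraries, blue for DMSO and orange for JQ1, and black bars are means of 3 libraries. NEAT1 and TUG1 are above their DMSO group in every line, as are 11.2% of tested genes. DANCR is below it in every line, as are 12.3% of tested genes. The snoRNA hosts move in different directions in different lines.

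NEAT1 (Entrez 283131) rose with JQ1 in all 6 lines and had the largest average change of the 10, 3.46-fold. In COLO205 its DMSO libraries had 19.3, 24.9 and 18.6 RPKM and its JQ1 libraries 125.6, 127 and 134.9 RPKM. HT-29 went from 34.3, 28.4 and 36.6 to 219, 209.8 and 163 RPKM. The lowest JQ1 library of each of these 2 lines was several times its highest DMSO library.

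In SW480, the line with the highest start, NEAT1 went from 82.7, 92.1 and 70.3 to 151, 160.5 and 141 RPKM. HCT116 went from 37.6, 41.8 and 32.2 to 80.1, 99.3 and 84.4 RPKM. These 2 lines had the smaller responses, and their groups did not overlap either. HCT-15 went from 20.1, 21.1 and 21.6 to 75.8, 65.3 and 63.1 RPKM, and COLO320 from 22.7, 21.3 and 18.6 to 70.2, 76.4 and 70.8 RPKM. These 2 lines started from the level seen in COLO205, and each of their JQ1 libraries stayed below each JQ1 library of COLO205. In bulk libraries, a change in the RNA of every cell and a change in the share of cells that express it cannot be told apart.

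Fold changes, here and below after 0.5 is added to RPKM, were 6.11 in COLO205, 5.87 in HT-29, 3.42 in COLO320, 3.19 in HCT-15, 2.35 in HCT116 and 1.85 in SW480. The largest adjusted p of the 6 was 1.6e-07 (limma). The average log2 change was 1.79 ± 0.05 (SE; 95% interval 1.69 to 1.89), rank 24 from the top among tested genes. Of the tested genes 88.4% were called on average, 40.2% higher and 48.3% lower, and 11.2% rose in each of the 6 lines. With the cell line as the unit (n = 6 differences), NEAT1 kept its call (adjusted p = 0.00464), where 39.3% of tested genes were called.

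MALAT1 (Entrez 378938) rose in 4 lines, by 3.14-fold in COLO205, 2.42-fold in HT-29, 2.42-fold in COLO320 and 2.15-fold in HCT-15, each without overlap. In COLO205 it went from 8.887, 8.999 and 7.179 to 25.6, 26.8 and 29.2 RPKM. HCT116 showed overlapping groups, with 12.8, 11.8 and 6.75 RPKM in DMSO and 9.82, 16.1 and 13.8 RPKM in JQ1. The log2 difference there was 0.35 ± 0.18 (adjusted p = 0.0826).

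In SW480 MALAT1 had 15.8, 16.5 and 13.2 RPKM in DMSO and 18.22, 24.72 and 17.04 in JQ1. The groups did not overlap, but the log2 difference of 0.38 ± 0.18 had an adjusted p of 0.0584. Single libraries moved both values in either direction. Without DMSO replicate 1, DMSO replicate 2 or JQ1 replicate 1 the HCT116 difference was 0.52, 0.46 or 0.54 (adjusted p = 0.0184, 0.0434 and 0.0111), and without DMSO replicate 3, the lowest library, it was 0.079 (adjusted p = 0.709). Without JQ1 replicate 2, the highest JQ1 library in HCT116, it was 0.202 (adjusted p = 0.375). The SW480 difference was 0.48 without JQ1 replicate 3 (adjusted p = 0.0321) and 0.217 without JQ1 replicate 2, the highest library (adjusted p = 0.319). On average MALAT1 was 2.01-fold higher, rank 201 from the top, and passed with the line as the unit (adjusted p = 0.00553).

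TUG1 (Entrez 55000), a long noncoding RNA found in nucleus and cytoplasm, rose in all 6 lines with little spread between replicates. Of the tested genes, 11.2% rose in each line. HT-29 went from 30.1, 29.8 and 30.3 to 53.6, 52.3 and 53.1 RPKM, a 1.75-fold rise. HCT116 and COLO320 rose 1.62-fold and 1.63-fold, COLO205 1.43-fold and HCT-15 1.17-fold. SW480 went from 27.5, 30.2 and 28.3 to 31.5, 30.5 and 30.4 RPKM, which is 1.07-fold with an adjusted p of 0.00405, and this call was lost when the line was fitted alone (adjusted p = 0.0513). The average rise was 1.42-fold, with an adjusted p of 0.00866 with the line as the unit.

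DANCR (Entrez 57291), which hosts SNORA26 and is named for its action against cell differentiation, fell in all 6 lines, as did 11.7% of tested genes. HCT-15 went from 97.8, 92.3 and 92.8 to 42.6, 40.8 and 42.2 RPKM, 2.24-fold lower. The smallest fall was in HCT116, from 80.6, 76.1 and 82.3 to 62.7, 64.3 and 64.3 RPKM, 1.25-fold lower. HT-29, SW480, COLO205 and COLO320 were 1.68-fold, 1.62-fold, 1.54-fold and 1.41-fold lower, and the groups overlapped in none of the 6 lines, as for 12.3% of tested genes in the same direction. The average was 1.597-fold lower (log2 -0.68 ± 0.01), and with the line as the unit the adjusted p was 0.00509. These 4 RNAs were the ones of the 10 that passed with the line as the unit.

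**Figure D2:**
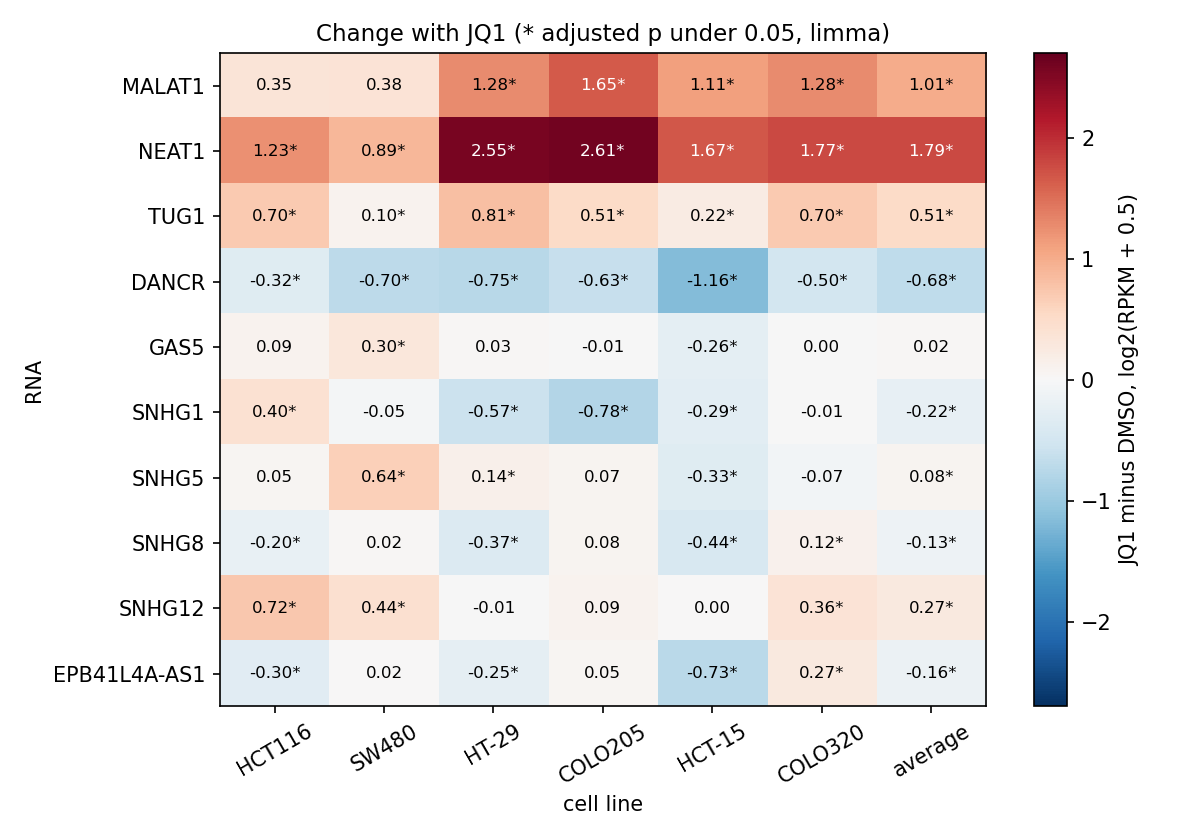
JQ1 minus DMSO difference in log2(RPKM + 0.5), as colour and number, for the 10 RNAs (rows) in the 6 lines and on average (columns); an asterisk marks an adjusted p under 0.05 in limma. NEAT1, TUG1 and DANCR each have 1 direction in all 6 lines (NEAT1 0.89 to 2.61, TUG1 0.10 to 0.81, DANCR -1.16 to -0.32), while the rows of GAS5, SNHG1, SNHG5, SNHG8 and EPB41L4A-AS1 hold calls of both signs.

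In HCT116, 7 of the 10 RNAs were called where 67.8% of tested genes were: 4 rose (32.4% of tested genes) and 3 fell (35.5%). SW480 had 6 calls (73.9% of tested genes), of which 5 were up (33.9%) and 1 was down (40.1%). HT-29 had 8 calls (74%), 4 up (36.6%) and 4 down (37.3%). COLO205 had 5 calls (72.8%), 3 up (34.2%) and 2 down (38.6%), and HCT-15 had 9 (70.2%), 3 up (34.8%) and 6 down (35.4%). COLO320 had 7 calls (68.2%), 6 up (31%) and 1 down (37.2%). The median log2 change of the 10 ran from -0.28 in HCT-15 to 0.22 in HCT116, where the medians of all tested genes were 0.0 and -0.004. The JQ1 effect differed between lines for all 10 by limma's F test, and for 93.3% of tested genes.

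Of the 6 snoRNA hosts other than DANCR, 5 were called in opposite directions in different lines, as were 33.6% of tested genes. SNHG1 (Entrez 23642), host of 8 box C/D snoRNAs with rows here, rose in HCT116 from 134.5, 144.9 and 131 to 178, 189 and 176 RPKM, 1.32-fold. It fell in COLO205 from 63.1, 61.7 and 62.5 to 35.5, 36.2 and 36.6 RPKM, 1.72-fold. HT-29 was 1.49-fold and HCT-15 1.22-fold lower, while SW480 and COLO320 had log2 differences of -0.05 and -0.01 (adjusted p = 0.271 and 0.902). The line with the highest SNHG1 in DMSO was thus the one in which it rose.

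SNHG12 (Entrez 85028) showed its largest rise in HCT116 too, from 35.03, 36.05 and 32.18 to 54.6, 62.8 and 53.9 RPKM, 1.65-fold. It also rose in SW480 (1.35-fold) and COLO320 (1.28-fold) and was called lower in no line. HT-29, COLO205 and HCT-15 had log2 differences of -0.01, 0.09 and 0.00, with overlapping groups. Its average rise of 1.204-fold did not pass with the line as the unit (adjusted p = 0.0788).

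SNHG5 showed its largest rise in the line where it was already highest. SW480 went from 290.4, 297.7 and 304.9 to 467, 464 and 461 RPKM, 1.56-fold, and the SD of its JQ1 libraries was 3.38 RPKM. HCT-15 went from 23.4, 22.6 and 20.8 to 18.2, 18.1 and 16.6 RPKM, 1.25-fold lower. HT-29 was called 1.10-fold higher with overlapping groups (adjusted p = 0.0162). That call was lost without DMSO replicate 3, JQ1 replicate 1 or JQ1 replicate 2 (log2 0.07, 0.09 and 0.12; adjusted p = 0.212, 0.128 and 0.0542). HCT116, COLO205 and COLO320 were not called.

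GAS5 (Entrez 60674), known to accumulate in growth-arrested cells, had an average log2 difference of 0.02 ± 0.02 (95% interval -0.01 to 0.06; adjusted p = 0.228), the only one of the 10 not called on average. It rose in SW480 from 67.4, 74.1 and 71.4 to 88.6, 88.9 and 85.5 RPKM, 1.24-fold. It fell in HCT-15 from 53.4, 53.8 and 52.4 to 44.4, 45.9 and 42.6 RPKM, 1.199-fold. The other 4 lines had log2 differences between -0.01 and 0.09, and none passed the test.

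SNHG8 (Entrez 100093630), host of SNORA24, fell in HCT-15 from 37.8, 35.4 and 34.5 to 28.5, 26.1 and 24.6 RPKM, 1.35-fold. HT-29 (1.30-fold) and HCT116 (1.15-fold) were lower too. COLO320 was called 1.09-fold higher (adjusted p = 0.0256), and leaving out DMSO replicate 2 or 3, or JQ1 replicate 2 or 3, ended that call (log2 0.12, 0.12, 0.12 and 0.10; adjusted p = 0.0504, 0.0613, 0.0509 and 0.105). EPB41L4A-AS1 (Entrez 114915), host of SNORA13, behaved alike in direction. It fell in HCT-15 from 6.42, 6.54 and 6.04 to 3.55, 3.16 and 4.18 RPKM, 1.66-fold, fell 1.23-fold in HCT116 and 1.19-fold in HT-29, and rose 1.21-fold in COLO320 from 13.9, 12.6 and 14.4 to 16.0, 16.7 and 16.9 RPKM. In HCT-15, 5 of these 6 hosts fell, where 35.4% of tested genes did, and SNHG12, at log2 0.00, did not.

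Rows for 27 snoRNAs that lie inside the hosts were tested one by one. In HCT116, 15 rose, 0 fell and 12 did not pass (limma, adjusted p under 0.05), with a median log2 change of 0.60. There 32.4% of tested genes rose and 35.5% fell. In SW480 7 rose and 1 fell (33.9% and 40.1% of tested genes), and in HT-29 0 rose and 1 fell (36.6% and 37.3%). COLO205 had 0 higher and 9 lower (34.2% and 38.6%), and COLO320 had 1 higher and 2 lower (31% and 37.2%). In HCT-15 none was called, where 70.2% of tested genes were. In HCT-15 the count was also 0 at an unadjusted p under 0.05 and with voom on recovered reads, and in HT-29 voom called 1 higher and 0 lower. On average 6 rose and 2 fell, where 40.2% and 48.3% of tested genes did. The largest among the calls were SNORA16A (1.49-fold, log2 0.58), SNORA44 (log2 0.34) and SNORA61 (log2 0.32) in SNHG12, and SNORD31 (log2 0.39) in SNHG1. With the line as the unit 2 rose and 0 fell on average. With mitochondrial mRNA level as a covariate, described below, 4 instead of 15 rose in HCT116, and 5 rose and 1 fell in SW480. With it 3 fell in HT-29, 9 in COLO205, 2 in HCT-15 and 1 in COLO320, and 0 rose in each of these lines. On average 0 rose and 2 fell. Such rows are short and hold few reads, and reads from unspliced host RNA over the same bases cannot be told apart from the snoRNA.

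Summed per host, the snoRNA rows of SNHG1 and SNHG12 were higher along with their host in HCT116. The 8 rows in SNHG1 went from 17.4 ± 1.15 to 31.0 ± 3.18 RPM, reads per M of the authors' divisor (SD, n = 3), 1.78 times, while SNHG1 itself rose 1.32-fold. The 4 rows in SNHG12 went from 6.44 ± 0.572 to 12.8 ± 1.81 RPM, 1.99 times, beside 1.65-fold for the host. The 10 rows in GAS5 went from 19.6 ± 2.52 to 26.8 ± 1.08 RPM, 1.37 times, where GAS5 itself was not called. None of these 3 sums overlapped between groups, and those of the other 4 hosts did. The share of all tested genes without overlap in HCT116 was not counted.

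Elsewhere sum and host went together in some cases and diverged in others. In SW480 the SNHG12 rows were at 1.57 times their DMSO sum without overlap, and the host rose 1.35-fold. The SNHG1 rows there were at 1.17 times without overlap, where SNHG1 was not called. The GAS5 rows were lower without overlap in HT-29 (0.90 times) and COLO205 (0.89 times), where GAS5 was not called. SNORA24 in SNHG8 was too in COLO205 (0.561 times, 39 DMSO and 24 JQ1 reads). In COLO205 the SNHG1 rows were at 0.751 times their DMSO sum without overlap, and the host was 1.72-fold lower. In HT-29 they were at 1.03 times with overlapping groups, where the host was 1.49-fold lower. DANCR's single row, SNORA26, rested on 30 DMSO and 39 JQ1 reads over 3 libraries each in HCT116, with overlapping groups. In HT-29 it rested on 21 and 16 reads and was at 0.608 times its DMSO level without overlap, where DANCR was 1.68-fold lower.

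The other genes of these RNAs' pathways were taken from lists chosen with earlier results of these data known, so their counts are descriptions. For each list below, the shares over all tested genes are 40.2% higher and 48.3% lower on average. With the line as the unit 39.3% were called in either direction. Of 14 further snoRNA-host long noncoding RNAs tested, 12 fell and 2 rose on average, with a median log2 change of -0.40 against -0.04 over all tested genes. SNHG17 fell 1.76-fold, SNHG4 (which overlaps MATR3, so that reads may be shared) 1.73-fold and SNHG15 1.73-fold, and SNHG9 rose 1.72-fold, with a log2 change of 2.55 in HCT-15. With the line as the unit 8 fell and 0 rose. Of the 7 hosts among the 10, the average calls were 2 up (SNHG5, SNHG12), 4 down (SNHG1, SNHG8, EPB41L4A-AS1, DANCR) and 1 not called. With the line as the unit DANCR alone of these 7 was called (limma, adjusted p = 0.00509). The difference between these hosts and the 14 was not tested.

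All 11 snoRNP proteins, which bind or assemble snoRNAs, fell on average (median log2 -0.41), where 48.3% of tested genes did. With the line as the unit 9 fell. SHQ1, an assembly factor, was nearest to 0 (log2 -0.03, adjusted p = 0.0424), rose in HCT116 and SW480 (log2 0.15 and 0.23), and was named for its small value. The count was 10 of 11 under 7 of the alternatives, among them voom and the mitochondrial covariate. GAR1, a core H/ACA protein, fell 1.87-fold, the pseudouridine synthase DKC1 1.55-fold, the methyltransferase FBL 1.49-fold and the assembly factor NAF1 1.37-fold. In HT-29, COLO205 and COLO320 all 11 fell, where 37.3%, 38.6% and 37.2% of tested genes did. HCT116, in which SNHG1, SNHG12 and 15 of the 27 snoRNA rows rose, had 8 lower, 1 higher and 2 not called, with a median log2 change of -0.24. Of 23 protein-coding snoRNA hosts, 9 rose and 11 fell on average (median log2 -0.03; 4 and 3 with the line as the unit), among them DKC1 and NCL lower (1.55-fold and 1.35-fold) and EIF4A2 and EEF2 higher (1.41-fold each).

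Of 12 paraspeckle proteins, 11 fell and 1 rose on average, where 48.3% and 40.2% of tested genes did, while the NEAT1 row rose. That row, counted over 3735 bases, does not separate the short and long forms of NEAT1, so which form rose is not known. HNRNPH3 fell 1.75-fold, DAZAP1 1.63-fold and NUDT21 1.41-fold. The 1 that rose, NONO, was 1.04-fold higher and is named because it was the exception. The median log2 change was -0.37, and 9 fell and 0 rose with the line as the unit. Of 8 nuclear speckle proteins, 3 rose and 4 fell (2 and 2 with the line as the unit), with the scaffold SRRM2 1.48-fold and SON 1.18-fold higher and PNN and SRSF1 1.30-fold lower each.

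The 10 nonsense-mediated decay factors split 5 up and 5 down (median log2 -0.02), and 2 up and 0 down with the line as the unit. The kinase SMG1 was 1.42-fold and the endonuclease SMG6 1.37-fold higher, UPF3A was 1.14-fold higher and SMG9 1.18-fold lower. Among 20 other long noncoding RNAs tested, 9 rose and 9 fell (median log2 0.00; 7 and 5 with the line as the unit). MIR22HG was 2.00-fold, LINC00467 1.74-fold and TP53TG1 1.71-fold higher, and the imprinted H19 1.79-fold lower, with a log2 change of -2.60 in COLO205.

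**Figure D3:**
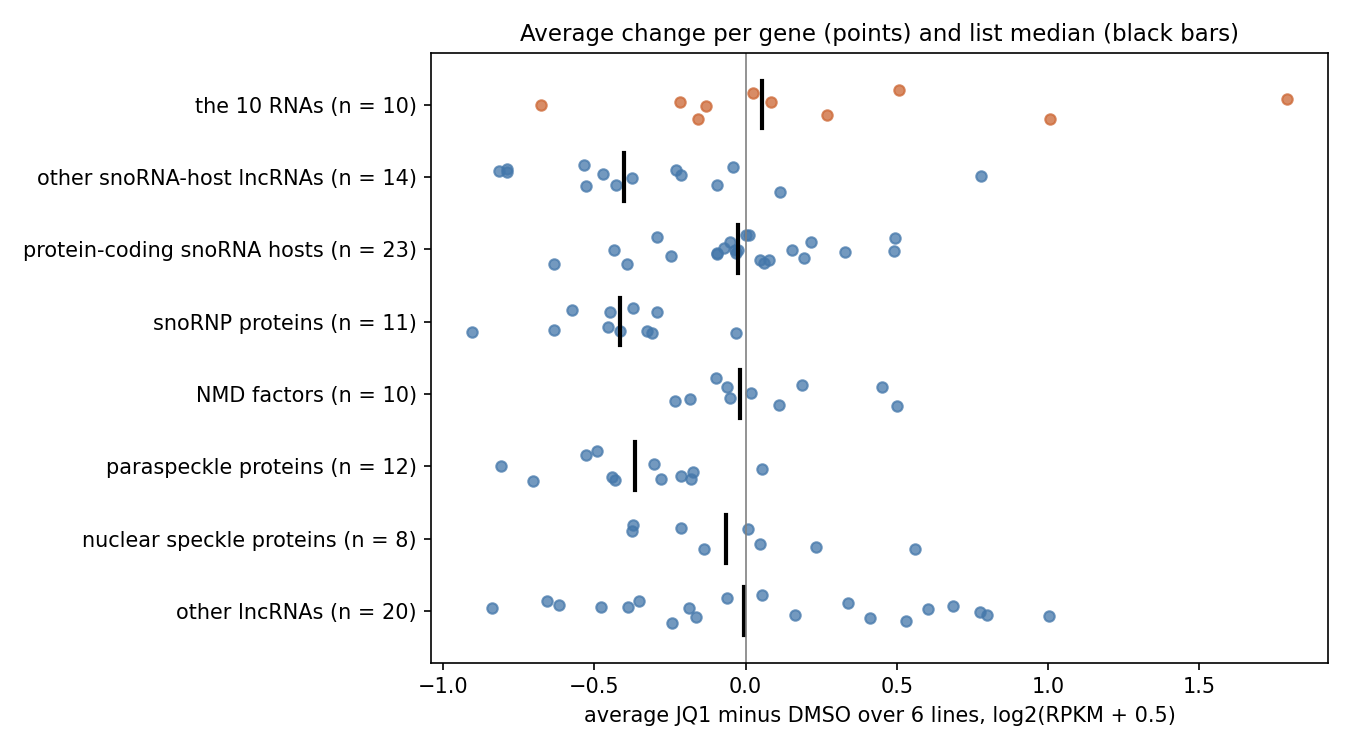
Average JQ1 minus DMSO difference in log2(RPKM + 0.5) over the 6 lines (x axis) for each tested gene of 8 lists (rows); points are genes, orange for the 10 RNAs, and black bars are list medians. The 11 snoRNP proteins all lie below 0 with a median of -0.41 and the 12 paraspeckle proteins have a median of -0.37, while the 10 RNAs run from -0.68 (DANCR) to 1.79 (NEAT1).

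Of the genes that overlap one of the 10 or lie next to it in the RefSeq gene order, 14 were tested. In 11 cases the gene and the RNA were both called on average, 7 in the same direction and 4 in opposite directions. FRMD8, before NEAT1, had an average log2 change of 0.22 beside 1.79 for NEAT1, and in HCT116 it had 0.00 (adjusted p = 0.938) beside 1.23. MORC2, before TUG1, had 0.08 beside 0.51, and was called lower in HT-29 (log2 -0.11), where TUG1 had its largest rise. WDR74, before SNHG1, fell in all 6 lines (log2 -0.59 to -1.12), including HCT116 (log2 -0.76), where SNHG1 rose. SLC3A2, after SNHG1, had an average log2 change of -0.21 beside -0.22 for SNHG1, and by line it ran from -0.93 in HT-29 to 0.51 in HCT-15. RCC1, before SNHG12, fell in all 6 lines, by 0.42 in HCT116 on the log2 scale, where SNHG12 had its largest rise.

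DANCR lies between USP46-DT, which rose on average (log2 0.47), and ERVMER34-1, which fell (log2 -0.90) but had a log2 change of 0.00 in HCT-15, where DANCR fell most. USP46, on the far side of USP46-DT, fell by 0.79. PRSS12, after SNHG8, fell by 0.68. Some of these genes overlap one of the 10, and without stated strand their reads cannot be told apart: GAS5 with GAS5-AS1 (log2 0.00) and ZBTB37 (log2 -0.01), SNHG12 with TRNAU1AP (log2 -0.23), and EPB41L4A-AS1 with EPB41L4A (log2 -0.59), which fell in SW480 by 1.498 where EPB41L4A-AS1 had 0.02.

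By likeness over the 12 group means of log2(RPKM + 0.5), which share libraries, line and treatment, the tested genes closest to MALAT1 were NEAT1 (Pearson r = 0.946), APMAP (0.932) and ZKSCAN1 (0.924), and those closest to NEAT1 were SECISBP2L (0.979), MALAT1 (0.946) and APMAP (0.911). For SNHG1 they were the snoRNA rows SNORD26 (0.959), SNORD29 (0.940) and SNORD50B (0.939), the first 2 inside SNHG1 and the last in SNHG5. For SNHG12 they were SNORA61 (0.975) and SNORD22 (0.955), the latter inside SNHG1, with AGPAT4 (0.959) between them. TUG1 was closest to MPG (0.932), YPEL3 (0.927) and ATP6V1A (0.927), and DANCR to SUZ12P1 (0.963), MZT2A (0.939) and WDR5 (0.935).

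The remaining RNAs had these nearest patterns. SNHG5 followed FRG1HP (0.966), EPHA4 (0.966) and YWHAQ (0.966), GAS5 followed NTSR1 (0.944), DNAJA4 (0.930) and CD44 (0.913), SNHG8 followed EFCAB7 (0.914), SNHG6 (0.894) and GRIN2D (0.890), and EPB41L4A-AS1 followed TFCP2 (0.954), DHRS4-AS1 (0.933) and MACROD1 (0.929). These are the highest of 14839 named genes over 12 points and carry no test.

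MALAT1 and NEAT1 varied more between replicates than most genes. The pooled SD between replicates on the log2 scale was 0.23 for MALAT1 and 0.16 for NEAT1, against a median of 0.06 over tested genes, and 0.04 for TUG1 and DANCR. Over the 36 libraries, deviations of MALAT1 and NEAT1 from their group means ran together (Pearson r = 0.718, the highest of the 45 pairs among the 10). They also ran with the summed level of the 13 mRNAs of the mitochondrial genome, at r = 0.844 for MALAT1 (Spearman rho = 0.813; 0.786 without the 2 libraries farthest from the median) and r = 0.864 for NEAT1 (rho = 0.887; 0.857 without those 2). The other 8 ranged from -0.33 (DANCR) to 0.62 (TUG1). These points share library preparation and depth, and the mitochondrial mRNAs were examined after the spread had been seen.

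**Figure D4:**
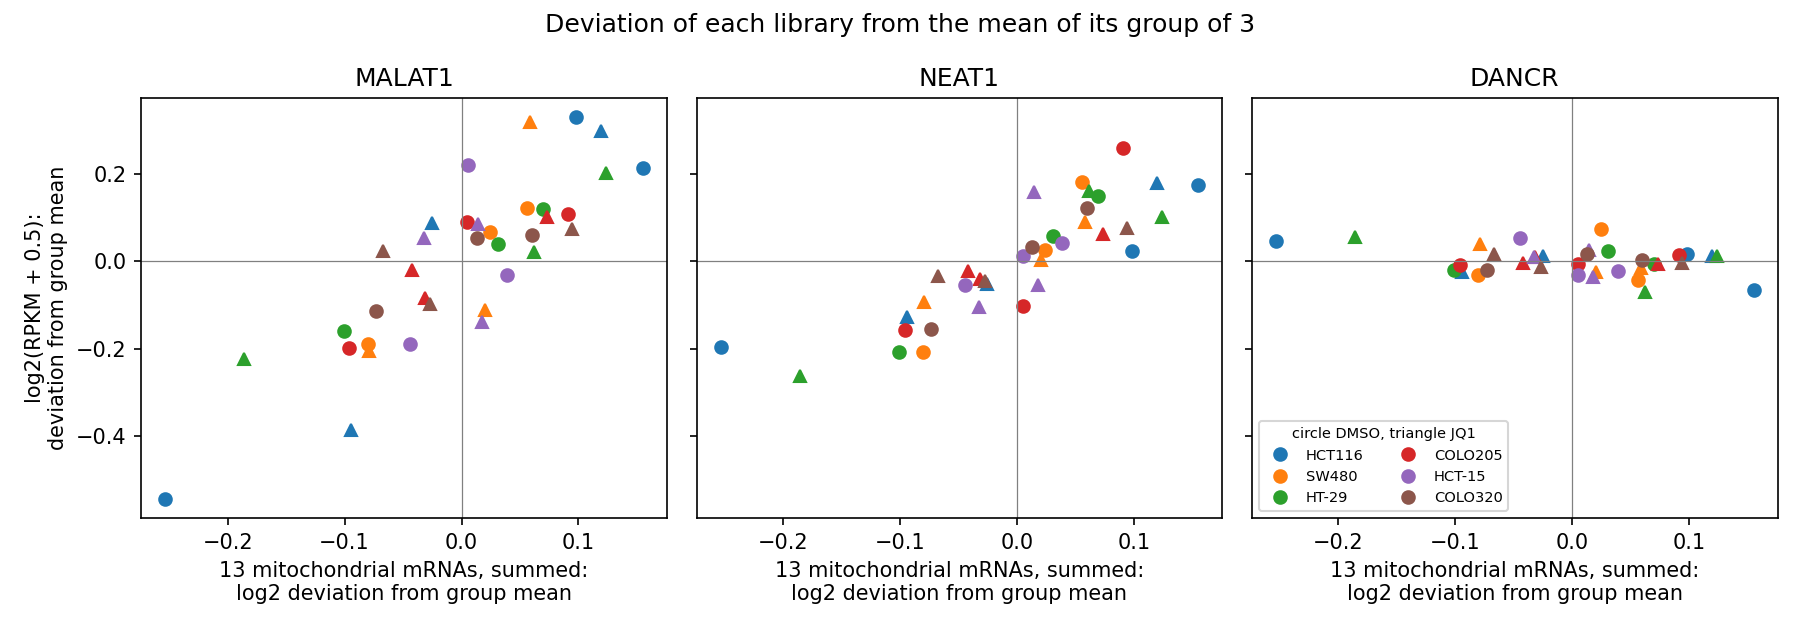
Deviation of each of 36 libraries from the mean of its group of 3, for MALAT1, NEAT1 and DANCR in log2(RPKM + 0.5) (y axis), against that of the 13 summed mitochondrial mRNAs in log2 RPKM (x axis); colours are lines, circles DMSO and triangles JQ1. MALAT1 (r = 0.844) and NEAT1 (r = 0.864) rise along the x axis and DANCR stays within a narrow band.

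The mitochondrial mRNAs themselves were higher with JQ1 in every line without overlap, from 1.10 times the DMSO mean in SW480 to 1.43 times in COLO205, and all 13 rose on average. Their level was therefore added to the model as a covariate, a choice made after the data had been seen. NEAT1 then remained higher in all 6 lines, 2.55-fold on average instead of 3.46-fold, with 1.64-fold in SW480 and 4.25-fold in HT-29. MALAT1 was 1.30-fold higher on average instead of 2.01-fold, and in HCT116 its difference turned to -0.36 (adjusted p = 0.0199). In COLO205 MALAT1 was 1.61-fold instead of 3.14-fold higher, still called, as it was in HT-29, HCT-15 and COLO320.

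With the same covariate TUG1 was 1.35-fold higher and DANCR 1.55-fold lower on average, both called in all 6 lines. SNHG12 (log2 0.05, adjusted p = 0.586) and SNHG5 (log2 0.06, adjusted p = 0.237) were no longer called on average, and SNHG12 kept its calls in HCT116 (1.39-fold) and SW480 (1.27-fold). The covariate rises with JQ1, so it takes up part of any treatment effect that moves with it, and the 2 cannot be told apart here.

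A pair of rows without a symbol followed MALAT1 and NEAT1 across the 36 libraries (r = 0.995 and 0.997) and were picked out for that. Entrez 100507645, counted over 1927 bases, rose 1.99-fold on average, and Entrez 100653017, counted over 603 bases, 3.27-fold. Whether they share reads with MALAT1 and NEAT1 was not tested. NEAT1 was counted over 3735 bases, so its short and long forms were not separated.

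As checks of the labels, HEXIM1, a gene known to rise under BET inhibitors, rose in all 6 lines and 3.45-fold on average. The 8 colon epithelial markers each reached 1 RPKM in some library, and summed to 1152 to 4309 RPKM in DMSO, but not every line had all of them. In COLO320 the sum was mostly CDX2 (1099 RPKM in DMSO), EPCAM had 1.37 RPKM, and KRT19, VIL1 and LGALS4 were under 1 RPKM. None of 3 endothelial markers reached 1 RPKM. The 4 fibroblast markers summed to at most 14.5 RPKM, and 2 of them (COL1A2 and DCN) stayed under 1 RPKM. The 4 leukocyte markers summed to at most 5.25 RPKM.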

How the data were processed

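The authors deposited 1 table of RPKM for 36 libraries, which the labels place in 12 groups of 3. The labels' protocols name a column RNA kit with DNase treatment and a TruSeq RNA kit, and neither strand nor read length. The submitters' processing notes list GSNAP, DESeq and limma without versions or order. They name a mouse build, NCBIM37, for human genes, so coordinates are given for RefSeq promoter windows and for no row of the table. Symbols came from a RefSeq table of GRCh38.p14 that named 24519 of 26468 genes, and 0 value columns lacked a sample.

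Whole read counts were recovered from the RPKM steps of 100% of the 23499 genes above 0 (tolerance 1e-06 read). Libraries held 18.8 to 53.1 M reads in genes, median 24.5 M. The authors' divisor was 19.1 to 52.4 M, and reads per unit of divisor ran from 0.878 to 1.02. Because RPKM are relative, a change in total RNA per cell is not seen.

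Tests used log2(RPKM + 0.5), which understates changes of low genes, for 15542 genes with at least 1 RPKM in at least 3 libraries, of which 14839 had a symbol. limma 3.58.1 in R 4.3.3 fitted 12 group means over all 36 libraries with a mean-variance trend (24 residual and 2.97 prior degrees of freedom). JQ1 was compared with DMSO within each line and on average, with F tests of the JQ1 effect and of the DMSO level between lines. Two-sided p-values were adjusted by Benjamini-Hochberg over all tested genes, with 0.05 as the threshold for a call. The fit was tested on simulated data in which every gene had the same setting for spread between replicates. That test did not cover the wider replicate spread of MALAT1 and NEAT1. Alternatives were pseudocounts of 0.1 and 1, no filter and a filter at 5 RPKM, total reads as divisor, quantile scaling, median centring, voom on the recovered reads, each line alone, a replicate block, the cell line as the unit, leaving out each library, and, added after the data were seen, the level of 13 mitochondrial mRNAs as a covariate. Other software was pandas 2.3.3, numpy 2.4.6, matplotlib 3.10.9 and scipy 1.17.1 under Python 3.11.15.

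The 10 RNAs and all gene lists were chosen with earlier results of these data known. Named genes are the 10 RNAs, up to 4 called genes with the largest average change per list, the 3 genes most like each RNA, and neighbours in the RefSeq gene order. A gene that this rule would name is not reported here. Exceptions named after their values were seen are marked. Shared replicate numbers were not used as pairs.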

Additional observations from a re-analysis of the deposited data

Results flagged for a closer look

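For all 10 RNAs the JQ1 effect differed between the 6 lines by limma's F test with Benjamini-Hochberg adjustment, as it did for 93.3% of tested genes. The adjusted p was 2.58e-16 for SNHG1, with log2 changes from -0.78 in COLO205 to 0.40 in HCT116, 5.26e-15 for DANCR (-1.16 to -0.32), 8.88e-15 for TUG1 (0.10 to 0.81), 2.91e-11 for SNHG5 (-0.33 to 0.64) and 2.77e-10 for NEAT1 (0.89 to 2.61). It was 4.08e-09 for EPB41L4A-AS1 (-0.73 to 0.27), 5.29e-09 for SNHG8 (-0.44 to 0.12), 4.02e-07 for GAS5 (-0.26 to 0.30), 5.81e-05 for MALAT1 (0.35 to 1.65) and 7.41e-05 for SNHG12 (-0.01 to 0.72). DANCR, TUG1 and NEAT1 differed between lines in size and kept 1 direction.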

How the results depend on the processing

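Of 770 values for the 10 RNAs (7 contrasts under 11 alternatives), 720 kept direction and side of the threshold, 13 lost a call, 15 gained one and 22 changed sign. NEAT1 rose and DANCR fell in every line under every alternative run, and TUG1 rose with a call in all but SW480 fitted alone. With the line as the unit 3 RNAs rose and 1 fell on average (5 and 4 in the fit over libraries), and 6105 genes were called instead of 13745. With the mitochondrial covariate 3 rose on average, and 2 instead of 1 fell in SW480. Quantile scaling gave 5 instead of 3 higher in COLO205. Voom gave 2 instead of 1 lower in COLO320. Total reads as divisor lowered the share of higher calls among all genes in HCT-15 from 49.6% to 38.7%. With a replicate block 2 instead of 1 fell in COLO320 (SNHG5 at log2 -0.07, adjusted p = 0.0352), and no other count of RNAs moved over 1.5 times. The numbers share no deviation: same-numbered libraries correlated at -0.148 to 0.0492 over 18 pairs, and 4 of 18 DMSO libraries correlated best with their own number.

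Sign changes touched values that were not called, other than MALAT1 in HCT116 (-0.363 with the mitochondrial covariate, adjusted p = 0.0199). With that covariate GAS5 was -0.026 in HT-29 and -0.025 on average, and SNHG12 -0.240 in COLO205 and -0.242 in HCT-15. With total reads, EPB41L4A-AS1 in SW480 was -0.004, GAS5 -0.044 in HT-29, 0.009 in COLO205 and -0.012 on average, and SNHG12 -0.119 in HCT-15. With quantile scaling GAS5 was 0.083 in COLO205 and 0.056 in COLO320, SNHG1 0.054 in COLO320, and SNHG12 0.009 in HT-29 and -0.019 in HCT-15. With median centring GAS5 was 0.020 in COLO205 and 0.035 in COLO320, SNHG1 0.029 in COLO320, and SNHG12 0.007 in HT-29 and -0.005 in HCT-15. With voom SNHG12 was 0.036 in HT-29 and -0.001 in HCT-15.

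Leaving out 1 library gave SNHG8 -0.020 to 0.051 and EPB41L4A-AS1 -0.026 to 0.078 in SW480, GAS5 -0.012 to 0.049 in HT-29, -0.069 to 0.039 in COLO205 and -0.032 to 0.025 in COLO320, SNHG12 -0.142 to 0.166 in HT-29 and -0.036 to 0.021 in HCT-15, and SNHG1 -0.052 to 0.034 in COLO320. The cause was not tested in any of these cases.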
